A study of Homo sapiens with 4 samples.

Results

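The genes described here are 10 reported targets of YAP and the TEAD factors, namely CCN1, CCN2, THBS1, ANKRD1, AMOTL2, AJUBA, LATS2, AXL, F3 and TEAD1, out of 19901 protein-coding genes in a table of nascent RNA counts. They were chosen with earlier results of these data known, so the list is not independent of the data. Rows were found by the Ensembl identifier of each symbol, and all 10 were found. After acute KAP1 depletion, 6 of them were upregulated, 0 were downregulated, 3 did not pass the test and 1, ANKRD1, had too few counts to be tested. Over all tested genes, 3.44% were upregulated and 3.66% downregulated. With library sizes set to spike-in totals, 0 of the targets were upregulated, as were 0 of all tested genes. With a spike-in factor as covariate, 7 targets were upregulated, where 6.33% of all tested genes were. A likelihood ratio test after TMM scaling also gave 7, where 5.78% of all tested genes were upregulated. Among the 9 tested genes F3 and CCN1 had the largest fold changes, to 1.99-fold and 1.79-fold of the DMSO level.

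YAP and its paralog TAZ are coactivators without a DNA-binding domain of their own, and they act on genes mainly through the TEAD family of transcription factors. In the Hippo cascade the kinases STK3 and STK4 activate LATS1 and LATS2, which phosphorylate YAP and TAZ and so keep them out of the nucleus, and cell density, matrix stiffness and serum lipids are known inputs. Several targets feed back on the pathway, since LATS2 and AMOTL2 restrain YAP, while others encode secreted matrix proteins or surface receptors. TEAD sites often lie near AP-1 sites, and CCN1 is also an immediate early gene of the serum response.

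The data are TT-Seq libraries, in which RNA made during a 10 min pulse of 500 μM 4-thiouridine (4sU) is purified and sequenced. Cells were HCT116, a colon cancer line, of the KAP1_dTAG clone D5, a single clone in which KAP1 carries a degron tag through which the compound dTAG directs it to the proteasome. The 2 DMSO libraries (vehicle) and the 2 dTAG libraries (KAP1-depleted) came from that same clone, grown in medium with serum and treated for 8 h, so that all 4 libraries share the tag and dTAG is the one difference named. Parental cells treated with dTAG were not analysed here. The study calls its TT-Seq libraries biological replicates, and p-values measure the spread between them within the 1 clone.

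Gene counts were between 93105627 and 102314741 per library. TRIM28, which encodes KAP1, stood at 61.7 and 69.8 CPM (counts scaled to 1e6 of the normalized library size) with DMSO and at 53.5 and 47.9 CPM with dTAG, which is -0.37 on the log2 scale and 0.28 when ERCC spike-in totals set the library sizes. It was -0.19 with an ERCC factor and -0.10 with trends on GC content and length removed, past the threshold in neither. The degron removes protein, so its RNA is no check of the labels. All 6 epithelial markers had 463 to 43667 counts in every library and summed to 1049 to 1154 CPM. Of 7 markers of other cell types, summed to 5.18 to 5.94 CPM, COL1A1 held 420 to 538 counts. PECAM1 had 24 to 39, CDH5 2 to 12 and COL3A1 1 to 5, while PTPRC, CD3E and DCN had 0 to 4. In such bulk samples, a change in the RNA of each cell and a change in the share of cells that make it cannot be told apart. A gene was tested if every library held at least 50 of its counts, which left 12612 genes. The test was the two-sided quasi-likelihood test of edgeR after TMM scaling, with Benjamini-Hochberg adjustment over all tested genes. A gene is called upregulated or downregulated at an adjusted p under 0.05.

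To show what lies in front of these genes, the 250 bases before the start site are given for 4 of them, from the RefSeq promoters of GRCh38.p14, read 5′ to 3′ along the gene. Capitals mark the TEAD core GGAATG and the AP-1 core TGANTCA, on either strand. F3 is shown because it had the largest fold change of the tested targets, CCN2 because it holds the most TEAD cores, THBS1 because 1 core lies close to its start and ANKRD1 because it holds both motifs.
F3, chr1:94541760-94542009, minus strand: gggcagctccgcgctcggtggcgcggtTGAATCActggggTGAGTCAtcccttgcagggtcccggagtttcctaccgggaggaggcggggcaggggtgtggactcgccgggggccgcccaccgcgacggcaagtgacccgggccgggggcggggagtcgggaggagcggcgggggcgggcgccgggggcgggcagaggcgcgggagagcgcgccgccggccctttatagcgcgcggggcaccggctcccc
CCN2, chr6:131951373-131951622, minus strand: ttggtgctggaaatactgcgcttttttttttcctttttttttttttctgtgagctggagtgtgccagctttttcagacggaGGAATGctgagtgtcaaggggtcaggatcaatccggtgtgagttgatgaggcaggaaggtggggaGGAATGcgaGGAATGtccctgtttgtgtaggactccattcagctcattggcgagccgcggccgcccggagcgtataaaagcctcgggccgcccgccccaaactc
THBS1, chr15:39580829-39581078, plus strand: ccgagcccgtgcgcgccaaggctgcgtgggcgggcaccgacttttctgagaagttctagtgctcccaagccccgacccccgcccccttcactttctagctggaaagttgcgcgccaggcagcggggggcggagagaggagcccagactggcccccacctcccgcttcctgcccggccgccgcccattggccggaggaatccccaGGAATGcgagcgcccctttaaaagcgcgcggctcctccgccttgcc
ANKRD1, chr10:90921088-90921337, minus strand: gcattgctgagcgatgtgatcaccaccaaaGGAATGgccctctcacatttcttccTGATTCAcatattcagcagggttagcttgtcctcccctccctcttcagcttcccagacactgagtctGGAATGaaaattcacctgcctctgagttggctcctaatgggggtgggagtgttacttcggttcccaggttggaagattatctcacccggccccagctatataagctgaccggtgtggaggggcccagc

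RefSeq promoter windows, from 250 bases before to 50 bases after the start, were found for 8 of the 10 genes, 11 windows in all, with CCN1 and TEAD1 the genes not matched. GGAATG was present on either strand in 7 of the 11 windows, those of CCN2, THBS1, ANKRD1, LATS2 and 1 window each of AMOTL2, AJUBA and AXL. For AMOTL2, AJUBA and AXL that window belongs to a start inside the counted gene. Their windows at the outer start of the gene held 0 such cores. Over the 35116 windows of the whole table the share was 14%, and over 14886 windows of tested genes it was 11.3%. The genes were listed as reported TEAD targets, so their share is not independent of that choice and was not tested. CCN2 held 3 such cores, at 169, 104 and 95 bases before the start. ANKRD1 held 2, at 220 and 128 bases before it, and the core of THBS1 lay at 46 bases. In LATS2 the core began 10 bases after the start. F3 held 0 of these cores, but 2 AP-1 cores at 223 and 210 bases before the start. TGANTCA was found in 2 of the 11 windows, those of F3 and ANKRD1, against 7.71% of all windows and 5.29% of those of tested genes. The CArG box, the site of the serum response factor, was in 0 of the 11 and in 1.29% of all windows. These are matches of letters near an annotated start, and binding was not measured here.

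Of the 9 tested target genes, 6 were upregulated, where 3.44% of all tested genes were, and 0 were downregulated, where 3.66% of all tested genes were. In either direction the background was 7.1%. At the 1.5-fold level 2 were upregulated, F3 and CCN1, against 0.507% of all tested genes, and 0 downregulated, against 1.13%. Both dTAG libraries lay above both DMSO libraries for 8 of the 9 genes, against 28.1% of all tested genes, and below them for 0, against 30.7%. All 9 log2 fold changes were positive, as were 47.7% of those of all tested genes. They ran from 0.017 for AJUBA to 0.99 for F3, with a median of 0.43, beside a median of -0.015 over all tested genes. On the log2 CPM scale, with each gene's DMSO mean set to 0, the 9 genes had a median of -0.065 in DMSO replicate 1 and of 0.065 in DMSO replicate 2. The dTAG libraries gave medians of 0.45 (replicate 1) and 0.41 (replicate 2). The pooled SD of these library medians was 0.069.

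**Figure D1:**
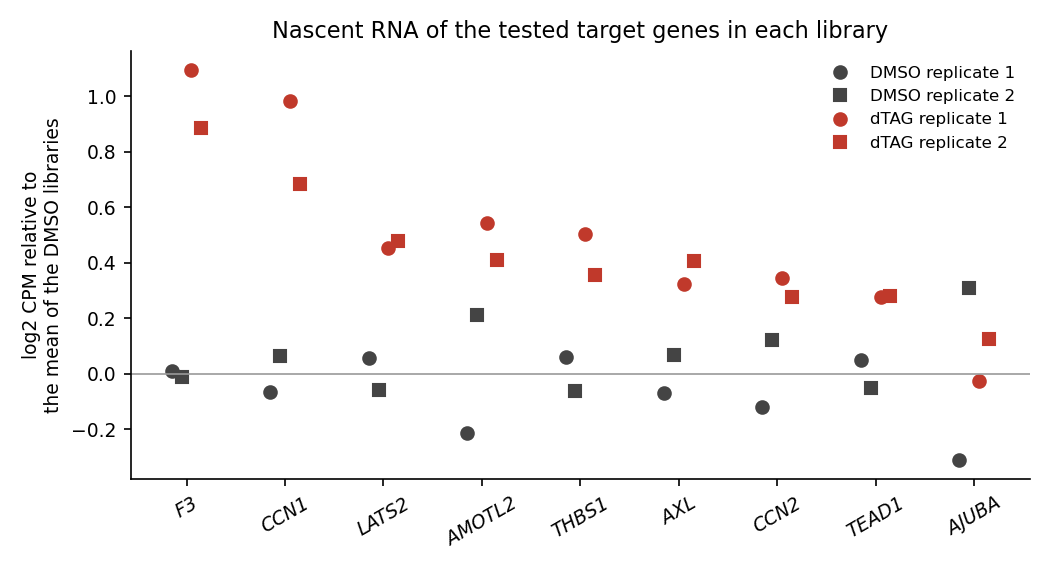
Log2 CPM of the 9 tested target genes in each of the 4 libraries, with the DMSO mean of each gene at 0 (grey, DMSO; red, dTAG; circles, replicate 1; squares, replicate 2). For every gene but AJUBA both red points lie above both grey points, and the red points of F3 and CCN1 lie highest.

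Among the secreted matrix proteins, CCN1 and THBS1 rose, while CCN2 did not pass the test. CCN1 (ENSG00000142871.16, chromosome 1 from 85580760 to 85583962 of hg38), a matricellular protein also called CYR61, stood at 16.3 and 17.9 CPM with DMSO and at 33.7 and 27.4 CPM with dTAG. Both dTAG libraries were well above both DMSO libraries, and the dTAG replicates differed from each other more than the DMSO replicates did. The means were 17.1 ± 1.09 and 30.5 ± 4.45 CPM (SD, n = 2). The log2 fold change was 0.84 (standard error 0.12, 95% interval 0.60 to 1.08), with an adjusted p of 1.4e-04 from edgeR, and it ranks 23rd from the top of the 12612 tested genes. THBS1 (ENSG00000137801.10, chromosome 15 from 39581078 to 39599466), thrombospondin-1, stood at 17.1 and 15.8 CPM with DMSO and at 23.3 and 21.0 CPM with dTAG, so that the groups did not overlap. Its log2 fold change was 0.43 (standard error 0.11, 95% interval 0.19 to 0.67), with an adjusted p of 0.028. With upper-quartile factors in place of TMM, THBS1 had an adjusted p of 0.063 and was not called. Of its length, 60.4% overlaps FSIP1 on the opposite strand, and whether reads were counted by strand is not given. FSIP1 itself had a log2 fold change of 0.021.

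CCN2 (ENSG00000118523.5, chromosome 6 from 131948175 to 131951373), also called CTGF and often used as a reporter of YAP activity, was much lower, with 121 and 144 counts with DMSO and 169 and 145 with dTAG. The dTAG libraries lay above the DMSO libraries at 1.69 and 1.61 CPM against 1.22 and 1.44 CPM, but the step was within what the test allows for so few counts. The log2 fold change was 0.31 with a 95% interval from -0.19 to 0.80 and an adjusted p of 0.41, an interval that holds both no change and a rise nearly as large as that of CCN1. The whole gene lies within LINC01013 on the opposite strand, a noncoding RNA that is no row of the table. The related genes CCN3, CCN4, CCN5 and CCN6 all fell below the count minimum, with at most 80 counts in any library.

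The cell surface proteins F3 and AXL were both upregulated. F3 (ENSG00000117525.13, chromosome 1 from 94529224 to 94541800) encodes tissue factor, which starts the coagulation cascade, and stood at 80.7 and 79.5 CPM with DMSO and at 171 and 148 CPM with dTAG. The DMSO replicates were nearly equal and the dTAG libraries lay far above them. The means were 80.1 ± 0.861 and 159 ± 16.2 CPM (SD, n = 2). On the log2 scale the rise of F3 was 0.99 (standard error 0.089, 95% interval 0.81 to 1.18, adjusted p 1.2e-06 from edgeR). It ranks 12th from the top of all tested genes. AXL (ENSG00000167601.11, chromosome 19 from 41219202 to 41261766), a receptor tyrosine kinase for the ligand GAS6, stood at 80.1 and 88.1 CPM with DMSO and at 105 and 111 CPM with dTAG. Its groups did not overlap either. The log2 fold change of AXL was 0.36 (standard error 0.085, 95% interval 0.19 to 0.54), with an adjusted p of 0.014. The intervals of F3 and AXL do not meet, and the difference between the genes was not tested.

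Of the targets that act within the Hippo pathway, LATS2 and AMOTL2 rose and AJUBA did not pass the test. LATS2 (ENSG00000150457.8, chromosome 13 from 20973031 to 21061547), the kinase that phosphorylates YAP, stood at 127 and 117 CPM with DMSO and at 167 and 170 CPM with dTAG. Its means were 122 ± 7.01 and 169 ± 2.09 CPM (SD, n = 2), a rise of 0.46 on the log2 scale (standard error 0.085, adjusted p 0.0023 from edgeR). AMOTL2 (ENSG00000114019.14, chromosome 3 from 134355873 to 134375479), an angiomotin relative that binds YAP, stood at 95.8 and 129 CPM with DMSO and at 162 and 147 CPM with dTAG. Its DMSO replicates were the farthest apart of the called targets, and DMSO replicate 2 lay closest to the dTAG libraries. AMOTL2 rose by 0.46 on the log2 scale (standard error 0.11, adjusted p 0.014 from edgeR). Leaving out DMSO replicate 2 gave 0.69, and leaving out DMSO replicate 1 gave 0.27. With an ERCC factor as covariate AMOTL2 stood at 0.84.

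AJUBA (ENSG00000129474.15, chromosome 14 from 22971173 to 22982642), a LIM domain protein that restrains the LATS kinases, had 82 and 127 counts with DMSO and 101 and 101 with dTAG. Both dTAG libraries lay between the DMSO libraries. Its log2 fold change was 0.017 with a 95% interval from -0.55 to 0.58, and its sign depended on single libraries and on the scaling, with -0.26 without DMSO replicate 1 and -0.059 with upper-quartile factors. A second gene row, ENSG00000259132, overlaps 96.7% of AJUBA on the same strand and held 510 to 575 counts. The methods do not say how reads in overlapping genes were assigned, so the level of AJUBA is uncertain.

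The transcription factor TEAD1 (ENSG00000187079.16, chromosome 11 from 12674590 to 12944483) stood at 421 and 393 CPM with DMSO and at 493 and 495 CPM with dTAG. The groups did not overlap, but the log2 fold change of 0.28 (standard error 0.096, 95% interval 0.077 to 0.48) had an adjusted p of 0.079. With DESeq2 the same comparison gave 0.29 and an adjusted p of 0.016, and over the 16 alternatives the adjusted p for TEAD1 ran from 0.0004 to 0.95. ANKRD1 (ENSG00000148677.6, chromosome 10 from 90912095 to 90921276), an ankyrin repeat protein of muscle that is a common YAP reporter in other cells, had 0 counts in both DMSO libraries and 3 and 13 counts in dTAG replicates 1 and 2. Summed over the group and scaled by library size, the 16 dTAG counts stood at 5.57-fold of the limit of 3 that a count of 0 allows with DMSO. This ratio allows for counting error with DMSO alone. It takes the 16 counts as exact and leaves out the spread between replicates, so it is no lower bound of the fold. It rests on dTAG replicate 2, since the 3 counts of dTAG replicate 1 alone are at that limit and give no fold. When genes of any count were kept, ANKRD1 had an adjusted p of 0.070 from edgeR.

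**Figure D2:**
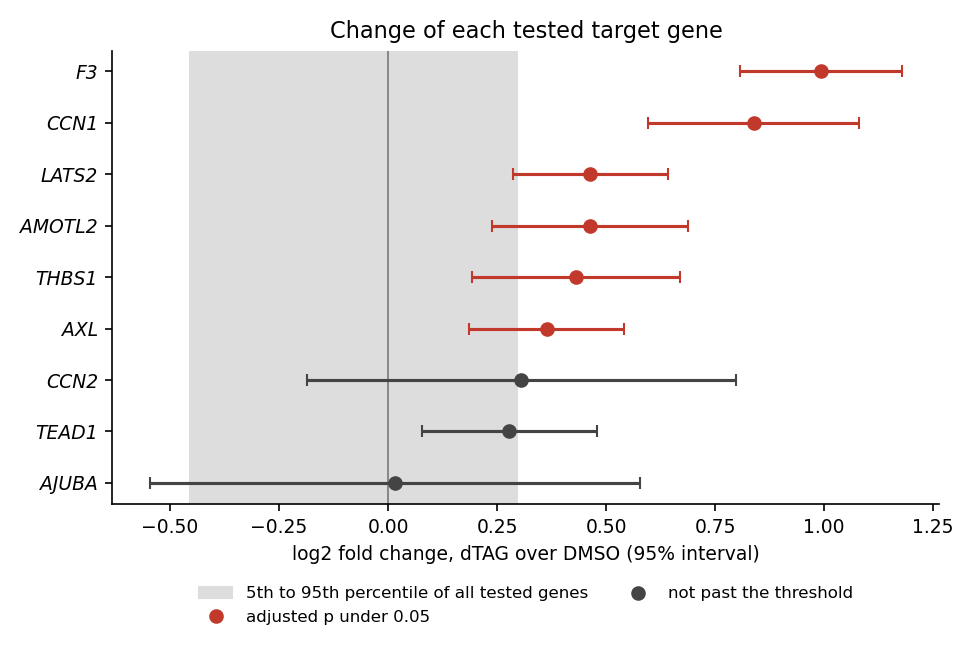
Log2 fold change of dTAG over DMSO for the 9 tested target genes, with the 95% interval of edgeR's quasi-likelihood test (red, adjusted p under 0.05), and the 5th to 95th percentile of all tested genes in grey. The intervals of F3 and CCN1 lie wholly to the right of the grey band, and those of CCN2 and AJUBA, the genes with fewest counts, are widest and include 0.

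Levels between genes were compared as CPM per kilobase of gene. With DMSO, F3 had 6.37 ± 0.0685, AMOTL2 5.72 ± 1.18 and CCN1 5.34 ± 0.341 CPM per kilobase (SD, n = 2), at percentiles 93.2, 92.2 and 91.5 of the tested genes. The DMSO ranges of F3 and AMOTL2 overlapped, as did those of AMOTL2 and CCN1, while F3 lay above CCN1 in both DMSO libraries, so that the place of AMOTL2 was not resolved. AXL followed at 1.98 and TEAD1 at 1.51. LATS2 stood at 1.38 and THBS1 at 0.894, on either side of the median of 1.06 over all tested genes. The DMSO ranges of neighbours from CCN1 downward did not overlap. CCN2 at 0.417 CPM per kilobase lay at percentile 26.6 and AJUBA at 0.0916 at percentile 10.3. With dTAG, CCN1 at 9.54 ± 1.39 stood above AMOTL2 at 7.89 ± 0.518, while F3 remained first at 12.7 ± 1.29 CPM per kilobase (SD, n = 2).

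**Figure D3:**
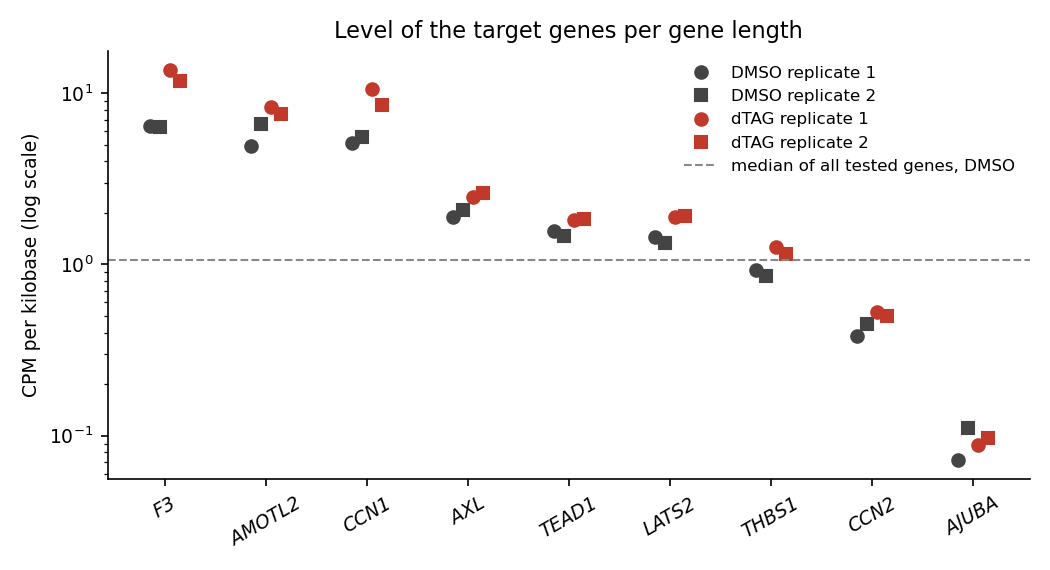
Level of 9 target genes in CPM per kilobase of gene, on a log axis, in the 4 libraries (grey, DMSO; red, dTAG), ordered by the DMSO mean, with the median of all tested genes as a dashed line at 1.06. F3, AMOTL2 and CCN1 lie well above the line, and CCN2 and AJUBA below it. ANKRD1, at 0 with DMSO, is not drawn.

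The profile of CCN1 was compared with that of every other tested gene, as the Euclidean distance of log2 CPM deviations from the gene's own mean over 4 libraries, which rests on few points. The 3 nearest of 12611 genes were ANO2 (distance 0.10), GPRC5A (0.14) and NT5E (0.15). Their log2 fold changes were 0.74, 0.80 and 0.90, so that nearness here goes with a similar fold change. ANO2 was low, at 1.19 and 1.32 CPM with DMSO, and was not called (adjusted p 0.059 from edgeR). NT5E also belongs to a published signature of YAP and TAZ targets, and a link to CCN1 was not tested.

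Over all tested genes, log2 fold changes were lower at higher GC content (Spearman's rho -0.56) and higher in longer genes (rho 0.42). These are correlations across genes, which are not independent replicates. The 9 tested targets had a median GC content of 50.3%, above the 44.9% of all tested genes. Their median length was 18389 bases, below the 36150 bases of all tested genes. With each library's trend on GC content and length removed, 7 of the 9 were upregulated, TEAD1 in addition, where 10.6% of all tested genes were, and AMOTL2 stood at 0.66 (log2). CCN1 and F3 stood at 0.98 and 0.99 in that fit.

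The components of the Hippo pathway were examined beside its targets. Over all tested genes, 3.44% were upregulated and 3.66% downregulated. In the core of kinases and adaptors, 1 of 7 genes was upregulated and 0 downregulated, with a median log2 fold change of 0.16. This was SAV1, the scaffold of the STK3 and STK4 kinases, which rose from 66.3 ± 3.46 to 90.1 ± 3.47 CPM (SD, n = 2), by 0.44 on the log2 scale with an adjusted p of 0.0032. The kinases did not pass the test, with log2 fold changes of 0.16 for LATS1, 0.13 for STK3 and 0.22 for STK4. Nor did the membrane scaffold NF2 at 0.26 (adjusted p 0.070 from edgeR). With the GC and length trend removed, LATS1 stood at 0.066, STK3 at 0.044, STK4 at 0.075 and SAV1 at 0.31. That fit called 2 core genes higher (background 10.6%) and 1 lower, MOB1A (background 7.46%). Of 22 upstream and modulating genes, 21 were tested, with 1 upregulated (the background being 3.44%), 0 downregulated and a median log2 fold change of -0.00077. Upper-quartile factors gave 0 upregulated (background 2.02%) and 2 downregulated (background 6.89%), FAT4 and TAOK2. Removal of the GC and length trend gave 4 upregulated (background 10.6%) and 3 downregulated (background 7.46%). The upstream gene called with TMM was WWC2, a relative of the LATS activator KIBRA, at 0.35 with an adjusted p of 0.037 from edgeR. WWC2 was not called with upper-quartile factors (adjusted p 0.057) or with an ERCC factor, where it stood at 0.14 (adjusted p 0.11). PTPN14 stood at 0.13, and the protocadherin FAT4 and the kinase TAOK2, at -0.61 and -0.26, did not pass the threshold (adjusted p 0.066 and 0.073). SAV1 and WWC2 both overlap another gene of the table, as does CRIM1 among the signature genes.

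Of the coactivators, the other TEAD factors and the VGLL cofactors, 6 of 9 were tested, with a median of 0.11. Of these, 1 was upregulated, where 3.44% of all tested genes were, and 0 were downregulated, where 3.66% were. WWTR1, which encodes TAZ, rose from 232 ± 13.7 to 296 ± 3.04 CPM (SD, n = 2), by 0.35 on the log2 scale (95% interval 0.16 to 0.54) with an adjusted p of 0.025. YAP1 stood at 239 and 214 CPM with DMSO and at 242 and 258 CPM with dTAG, a log2 fold change of 0.14 (95% interval -0.047 to 0.34, adjusted p 0.32). The intervals of the coactivator genes overlap, and YAP1 stood at -0.0043 with an ERCC factor and at -0.0022 without the GC and length trend. TEAD4 stood at 0.19 and VGLL4 at 0.084, neither past the threshold. Nor were TEAD2 at -0.21 and TEAD3 at -0.30, which stood at 0.45 and 0.37 when ERCC totals set the library sizes. VGLL1 and VGLL3 had at most 15 counts in a library and VGLL2 had 0 in all 4.

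A further list held 14 genes of a published YAP and TAZ target signature that are not among the 10. Like the targets, this list was chosen with earlier results of these data known, so it is not independent of the data. Of these, 10 were tested. In that set 3 were upregulated, where 3.44% of all tested genes were, and 0 were downregulated, where 3.66% were. The log2 fold changes of the 10 genes had a median of 0.23, beside -0.015 over all tested genes. NT5E, which encodes the ectonucleotidase CD73, stood at 14.3 and 13.7 CPM with DMSO and at 29.0 and 23.3 CPM with dTAG. Its log2 fold change of 0.90 (standard error 0.12, adjusted p 9.3e-05) was between those of F3 and CCN1. CRIM1, a transmembrane protein with cysteine-rich repeats, rose by 0.52 (adjusted p 0.0019) and DOCK5, an exchange factor for Rac, by 0.40 (adjusted p 0.016). MYOF and ASAP1, at 0.31 and 0.30, did not pass the threshold, with adjusted p of 0.062 and 0.071, nor did FJX1, the lowest value of the list, at -0.36 (adjusted p 0.14).

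**Figure D4:**
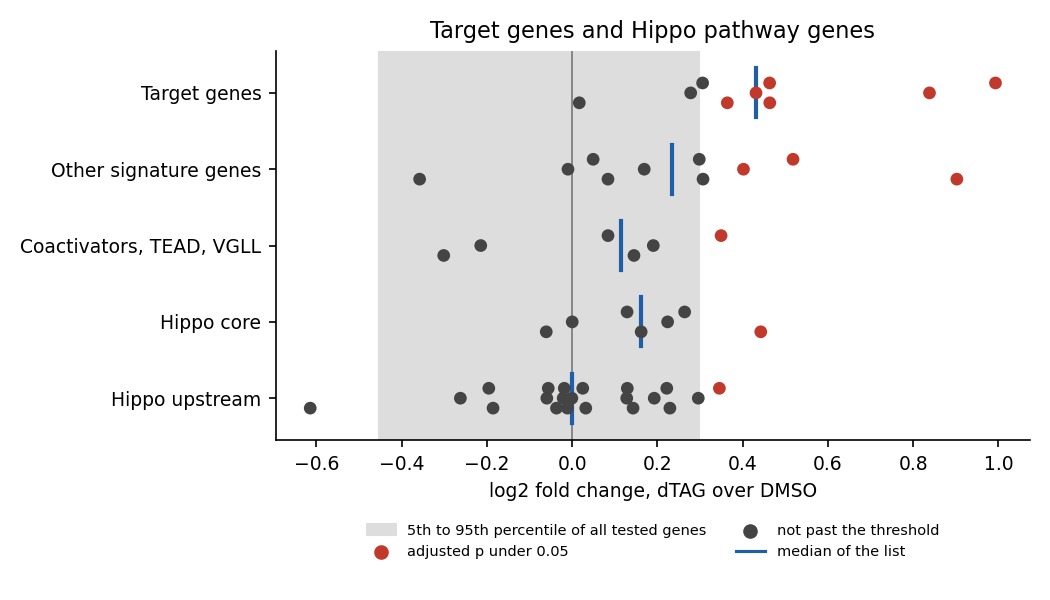
Log2 fold change of every tested gene in the 10 targets and in 4 lists of related genes (red, adjusted p under 0.05; blue bar, median of the list), over the 5th to 95th percentile of all tested genes in grey. The blue bar is at 0.43 for the targets, 0.23 for the other signature genes, 0.11 for coactivators, TEAD and VGLL, 0.16 for the Hippo core and near 0 for upstream genes, and with TMM no red point lies below 0.

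The calls rest on few libraries. Without either of the dTAG libraries, CCN1 and F3 were the 2 targets called and NT5E the 1 gene called in the pathway lists, against a background of 0.523% (without dTAG replicate 1) and 0.381% (without dTAG replicate 2) of all tested genes called higher. Without either of the DMSO libraries 7 targets were called, against a background of 22.2% (replicate 1 left out) and 6.41% (replicate 2 left out). In these fits the group with 1 library is assumed to vary like the other, and the 2 DMSO libraries differed more from each other (SD of the log2 ratio 0.22 across genes) than the 2 dTAG libraries did (0.15). The median log2 fold change of the 9 genes stayed between 0.33 and 0.45 without any 1 library. Library sizes set to the ERCC spike-in totals, whose share of the gene counts ran from 0.0103% to 0.0265%, left 0 targets called by edgeR, with 4 at an unadjusted p under 0.05 (DESeq2, on its own scaling, called 7), and all tested genes then had a median of 0.63. Relative to that shift the 9 targets had a median of 0.42, against 0.45 relative to all genes with TMM.

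**Figure D5:**
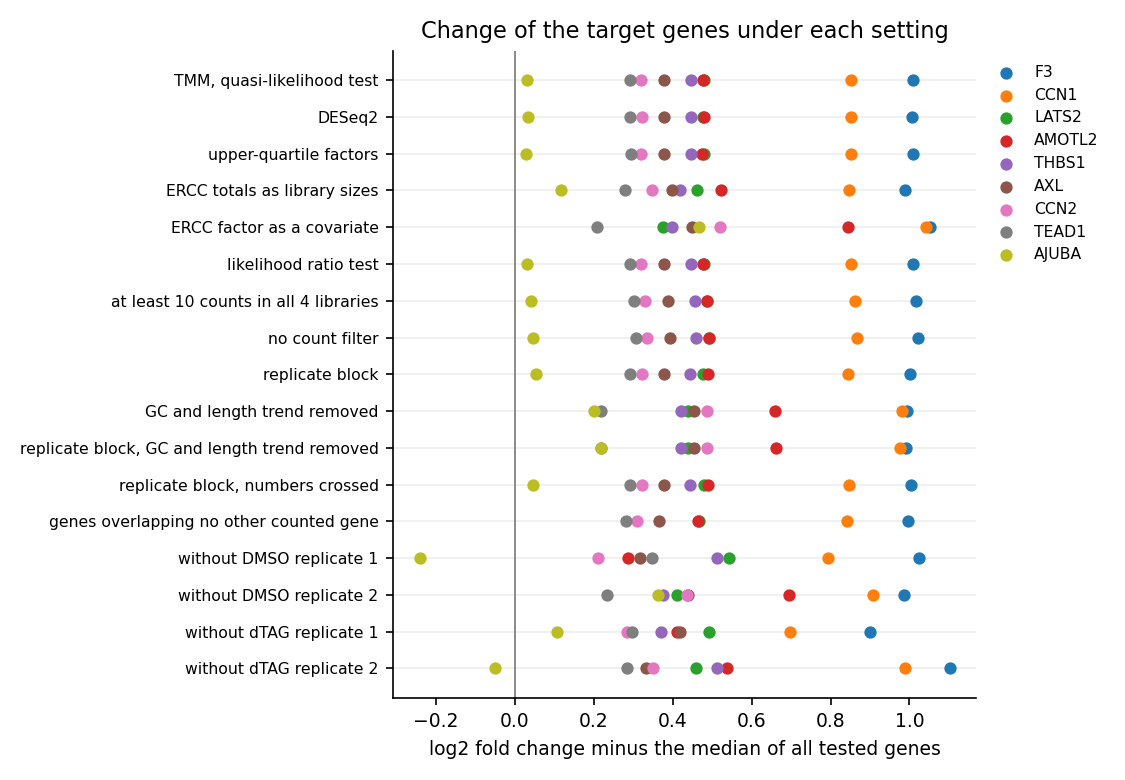
Log2 fold change of each tested target gene minus the median of all tested genes of the same fit, under TMM with the quasi-likelihood test (top row) and under each of 16 alternative settings. F3 stays between 0.90 and 1.10 and CCN1 between 0.70 and 1.04, while AJUBA moves from -0.24 to 0.47.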

How the data were processed

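Nascent RNA was measured by TT-Seq in 2 DMSO and 2 dTAG libraries of HCT116 KAP1dTAG cells. Per the labels and the methods, the authors trimmed reads with Trim Galore 0.6.4 and aligned them to hg38 by STAR. They deposited raw counts, not normalized, that featureCounts of Subread 1.6.3 gave for whole protein-coding genes, beside 92 ERCC RNAs. How strand and overlapping genes were treated is not given in the sources used here. The methods name spike-in normalization with EDASeq, RUVSeq and edgeR without its settings, so TMM was used here. A figure legend of the study names a likelihood ratio test, which was run as an alternative. Column names were matched to sample titles, and 0 columns were left out.

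Symbols were matched by Ensembl identifier for 19802 of the 19901 genes. Starts in the table, printed as given, lie 1 base below the GENCODE 44 start for 11092 genes. Genes reaching 50 counts in each of 4 libraries were tested in R 4.3.3 by edgeR's quasi-likelihood test (edgeR 4.0.16, Benjamini-Hochberg adjustment), with no replicate block. Deviations of same-numbered libraries had a correlation of -0.26 across genes, and nothing in the labels pairs them. Standard errors were derived from the F statistic of each gene, and intervals use the degrees of freedom of the same test. The fits were tested on simulated data. Alternatives were DESeq2 1.42.0, upper-quartile factors, ERCC totals, 1 ERCC factor (RUVg method), a likelihood ratio test, other filters, a replicate block, removal of GC and length trends (lowess, span 0.3) and leaving out each library. Crossed replicate numbers and genes without overlap were added after seeing the data.

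The targets, the pathway lists and the tests were chosen with earlier results of these data known. Named genes are the 10 targets, TRIM28, each called gene of the lists, 12 pathway genes given whether called or not, and the 3 genes nearest to CCN1. ASAP1, MYOF, FJX1, FAT4, TAOK2, FSIP1 and ENSG00000259132 were named after their values were seen. No protein sequences were used here.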

Additional observations from a re-analysis of the deposited data

How the results depend on the processing

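The direction of 8 of the 9 tested targets held under every alternative in which each was fitted, the exception being AJUBA (THBS1 and AJUBA overlap other genes and were left out of 1). Of the targets, 6 were called with TMM, 0 with ERCC totals, 2 at 1.5-fold, 4 to 7 with the other alternatives, and 2 to 7 without 1 library, and 0 were called lower throughout. Their median log2 fold change was 0.36 with upper-quartile factors, 1.05 with ERCC totals and 0.33 to 0.45 without 1 library. AJUBA stood at -0.059 with upper-quartile factors and at -0.26 to 0.36 without 1 library.

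Over all tested genes, 434 were called higher and 461 lower. The counts were 670 higher with DESeq2, 255 and 869 with upper-quartile factors, 0 and 0 with ERCC totals (229 at an unadjusted p under 0.05), 798 higher with an ERCC factor, 729 and 864 with the likelihood ratio test, 673 and 744 without a count filter, 1343 and 941 without the GC and length trend, and 64 and 143 at 1.5-fold. Without 1 library they ran from 48 to 2798 higher and from 21 to 2693 lower. The pathway lists held 6 called genes, 0 of them lower, and 10 with DESeq2, 0 with ERCC totals (1 at an unadjusted p under 0.05), 13 with an ERCC factor, 12 with the likelihood ratio test, 10 without a filter, 18 without the trend, 3 among genes without overlap, 1 at 1.5-fold and 1 to 25 without 1 library, with 0 to 5 lower over all alternatives.

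With the replicate number as a block, 162 genes were called higher and 178 lower, 3 in the pathway lists and 4 targets. THBS1 (adjusted p 0.098), AXL (0.063), WWTR1 (0.16), DOCK5 (0.13), WWC2 (0.17) and TRIM28 (0.059) were not called by edgeR with the block, and the numbers do not pair the libraries. With the block and the trend removed, 1503 were higher and 1124 lower, 19 in the lists. With crossed numbers, tried after seeing the data as was the removal of overlapping genes, 1587 were higher and 1603 lower, 18 in the lists.

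Signs also changed for YAP1 (-0.0043 with an ERCC factor, -0.0022 without the trend, also with the block), STK3 (-0.11 with an ERCC factor, -0.0081 to 0.28 without 1 library), TEAD2, TEAD3 and TRIM28 (0.45, 0.37 and 0.28 with ERCC totals). The cause was not tested. With 2 libraries a group, and counts near 100 for AJUBA and CCN2, changes of those genes were not resolved at this depth.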
